A study of Mus musculus with 6 samples.

Results

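Secreted protease inhibitors were examined as a family in RNA from the whole mouse oviduct. The genes were chosen by symbol alone: the serpins of clades a to i, the Kazal-type Spink genes, the whey acidic protein (WAP) genes Wfdc with Slpi, the cystatins and stefins, the inter-alpha-trypsin inhibitor heavy chains (Itih), and the macroglobulins A2m and Pzp. This gave 116 genes of 55363 symbols in all. Whole oviducts of pregnant females aged 6 to 8 weeks were collected on gestational day 3, counted from the vaginal plug as day 1, and 6 libraries were sequenced. Of these, 3 carry the genotype label Mettl3 f/f and 3 the label Mettl3 d/d. Mettl3 is the catalytic subunit of the enzyme that writes N6-methyladenosine on RNA. In common usage f/f stands for loxP sites on both copies and d/d for their deletion. The sources used here give no Cre driver, deleted exons, strain or pooling of animals. Since no label calls the replicates separate animals, the spread behind each p-value is that of these samples and may be technical.

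Protease inhibitors block proteolysis in the fluid and tissue around cells. Serpins are suicide substrates that trap serine proteases, WAP and Kazal proteins block them reversibly through small disulfide-bonded domains, cystatins occupy the active site of cysteine cathepsins, and macroglobulins cage proteases of every class. In the female tract such proteins are known from secretory epithelium and its fluid, where sperm, eggs and early embryos meet proteases of leukocyte and epithelial origin. Not every gene of the set codes for a secreted protein or an inhibitor: clade b serpins and stefins act mostly inside cells, and Serpinh1 is a collagen chaperone of the endoplasmic reticulum.

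Levels are in FPKM, that is fragments per length of transcript and size of library, and a log2 change is the mean of log2(FPKM + 1) with d/d less that with f/f. Values in the single libraries are listed for replicates 1, 2 and 3 in that order. The steps of the lowest values implied 16600000 to 17800000 fragments per library. Mettl3 itself did not fall with the label d/d: it read 11.8, 12.1 and 13.2 FPKM with f/f, against 19.8, 20.3 and 24.5 with d/d (log2 change of 0.75 with SE 0.12, limma adjusted p = 0.0145, and 0.0685 without f/f replicate 2; two-sided exact permutation p = 0.1, the smallest that 3 against 3 allows). A value per gene cannot show a missing exon, so every direction below rests on the labels. The tissue label was met by the oviduct glycoprotein Ovgp1, between 2651 and 5690 FPKM. Of 6 secretory epithelium markers, Epcam and Muc1 rose with d/d and 0 fell (limma, adjusted p under 0.05). Of all features tested, 6.04% rose and 4.97% fell. The other markers of that list had negative log2 changes and did not pass: Ovgp1 (-0.36), Pax8 (-0.20), Krt8 (-0.33) and Cldn3 (-0.90). Of 4 fibroblast markers, Lum rose and Pdgfra fell, and Col1a1 (log2 change 0.29) and Dcn (-0.30) did not pass. Of 3 endothelium markers, Vwf rose, and Pecam1 (-0.02) and Cdh5 (0.09) did not pass. Of 5 smooth muscle markers, Des fell, and Myh11 (-0.52), Acta2 (0.27), Cnn1 (0.11) and Tagln (-0.54) did not pass. Libraries of 1 group differed in makeup. Hoxa10, which marks the end nearer the uterus, was at 3.48, 26.5 and 25.1 FPKM with f/f, so that replicate 1 was low, and at 4.24, 9.47 and 12.4 with d/d. In whole tissue, fewer cells of a type and less RNA per cell cannot be told apart.

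Of the 116 genes, 39 were listed at 0 in every library, 42 were above 0 with a mean under 1 FPKM, and 35 had a mean of at least 1 FPKM over the 6 libraries and were tested. Of the 35, 5 rose and 5 fell in the libraries labelled d/d (limma, adjusted p under 0.05), or 28.6%, where 11.0% of all features tested passed. At an unadjusted p under 0.05 it was 20 of the 35, against 29.6% of all features. By direction, 6.04% of all features rose and 4.97% fell. The genes that rose were Wfdc17, Wfdc18, Serpina3g, Serpinf1 and Cstb, and those that fell were Wfdc15b, Wfdc12, Wfdc10, Wfdc13 and Itih5. The median log2 change over the 35 was -0.03, and over all features tested it was -0.01. In 8 of the 35 genes 1 group had a mean under 1 FPKM, so they passed the filter through the other group, and 3 of the 8 (Wfdc10, Wfdc12 and Wfdc13) were among those that fell. The share of 28.6% includes these 3.

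**Figure D1:**
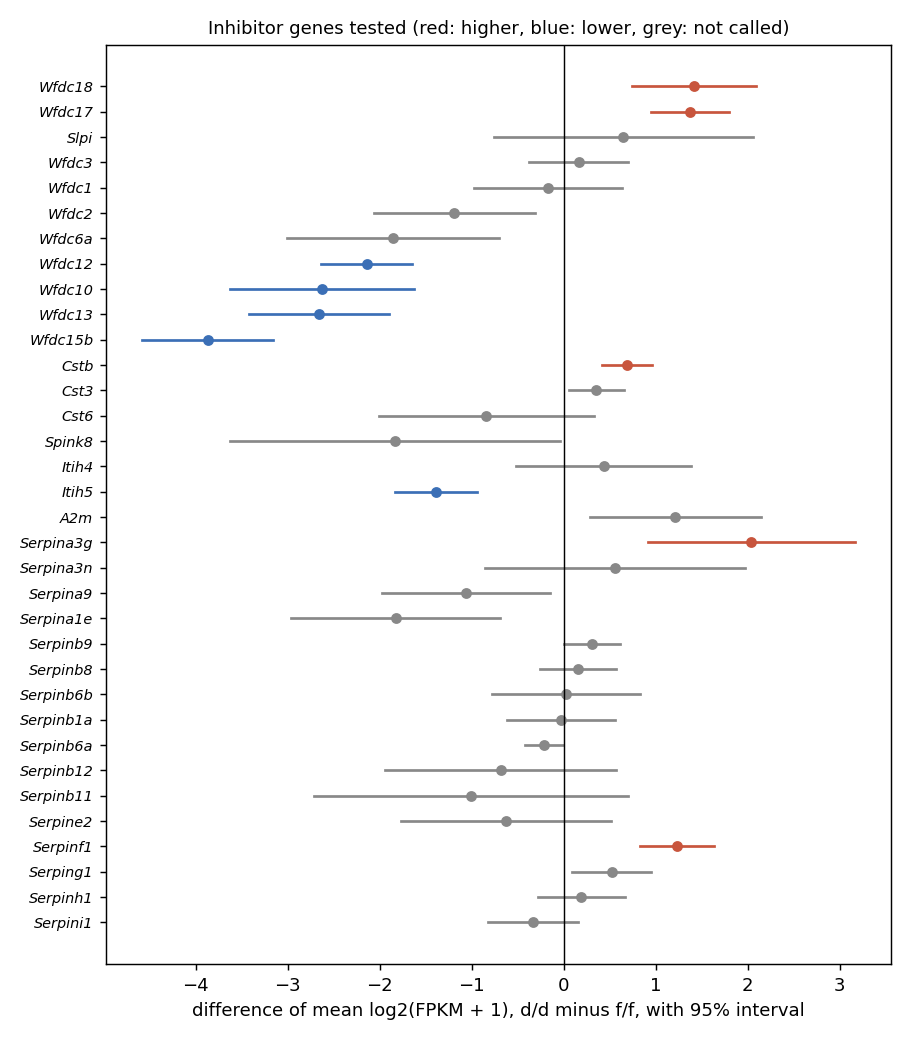
Log2 change, as d/d less f/f of the mean log2(FPKM + 1), for 34 of the 35 inhibitor genes tested (points), with the 95% interval of the limma fit (lines); red genes rose, blue genes fell and grey genes did not pass the test. Wfdc15b lies farthest to the left at -3.87 and Serpina3g farthest to the right at 2.04. The order on the left depends on the pseudocount of 1, since at 0.1 Wfdc12 (-4.83), Wfdc13 (-4.78) and Wfdc10 (-4.49) lie beyond Wfdc15b (-3.96).

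The inhibitor transcripts of the oviduct were concentrated in a few genes. The 10 most abundant members held 89.6% of the FPKM summed over all 116, and 9 had a mean of 100 FPKM or more. The summed level was 2659, 3879 and 3814 FPKM with f/f, against 3857, 3077 and 4131 with d/d, so the groups overlapped in total. Their makeup was not alike. Serpina1e, an alpha-1-antitrypsin gene, made up 24.2% ± 7.96 of the summed level with f/f and 6.29% ± 2.25 with d/d (SD, n = 3 each). Wfdc18, a WAP protein also known as extracellular proteinase inhibitor, made up 11.6% ± 2.75 with f/f and 28.8% ± 7.04 with d/d (SD, n = 3 each). Cystatin C (Cst3) held 15.1% ± 3.84 and 17.6% ± 1.82 (SD, n = 3 each). These shares are descriptions and were not tested.

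**Figure D2:**
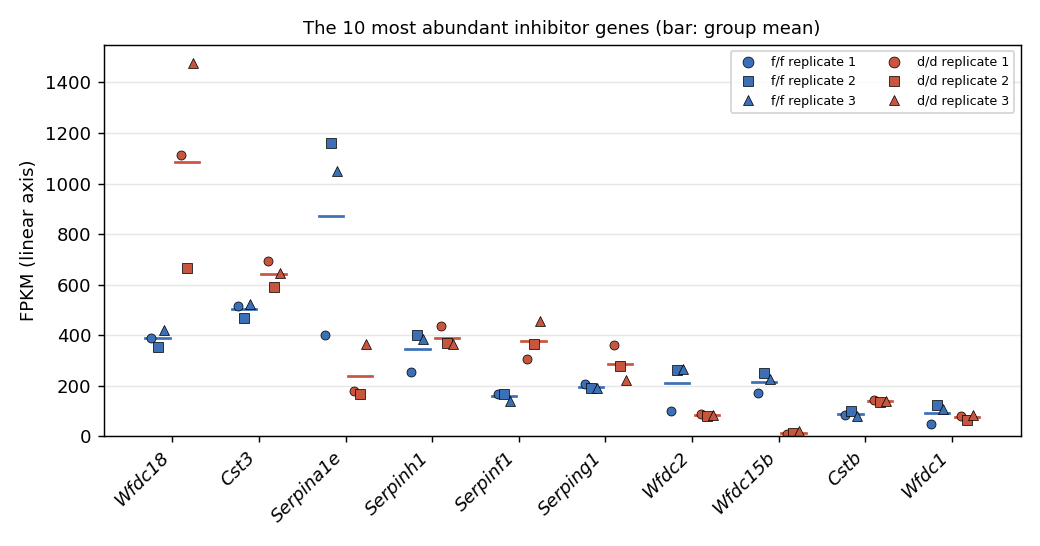
FPKM on a linear axis of the 10 most abundant inhibitor genes, with blue symbols for f/f and red symbols for d/d libraries, 1 symbol shape per replicate number, and bars at the group means. Serpina1e reaches 1160.2 FPKM in f/f replicate 2 and Wfdc18 reaches 1476 in d/d replicate 3.

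Of the 10 genes that passed, 6 were WAP genes. The WAP genes tested numbered 11, and of all features tested 11.0% passed. The 4 that passed on chromosome 2 fell and the 2 that passed on chromosome 11 rose. Of the 4, Wfdc10, Wfdc12 and Wfdc13 reached the filter through f/f alone and could be called in no other direction. The windows before the start sites of 5 of the 6 are shown. Each is the 250 bases before the start site in RefSeq (GRCm38.p6), 5′ to 3′ on the gene's strand, less the last 50 bases for Wfdc12 and 65 for Wfdc17, which lie inside the GENCODE gene. Motifs were searched in the full 250 bases, and the window of Wfdc10 lies within Wfdc9 on the other strand. Capitals mark matches on either strand to the TATA box (TATAAA), to the hexamer bound by progesterone and glucocorticoid receptors (TGTTCT) and to a C/EBP site (TTNNGNAA); no match overlaps another. Wfdc13 had no window in the table used. The first 3 genes fell and the last 2 rose.
Wfdc12 (chr2:164190609-164190808, minus strand): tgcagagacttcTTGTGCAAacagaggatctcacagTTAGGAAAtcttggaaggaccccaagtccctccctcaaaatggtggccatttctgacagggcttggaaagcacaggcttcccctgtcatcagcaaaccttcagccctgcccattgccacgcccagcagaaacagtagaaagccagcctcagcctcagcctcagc
Wfdc15b (chr2:164221664-164221913, minus strand): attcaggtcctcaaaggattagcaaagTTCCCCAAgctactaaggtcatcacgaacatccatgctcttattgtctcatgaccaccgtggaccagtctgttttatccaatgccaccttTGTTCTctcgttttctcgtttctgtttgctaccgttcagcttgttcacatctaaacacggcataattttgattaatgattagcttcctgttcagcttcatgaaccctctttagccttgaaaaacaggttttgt
Wfdc10 (chr2:164655796-164656045, plus strand): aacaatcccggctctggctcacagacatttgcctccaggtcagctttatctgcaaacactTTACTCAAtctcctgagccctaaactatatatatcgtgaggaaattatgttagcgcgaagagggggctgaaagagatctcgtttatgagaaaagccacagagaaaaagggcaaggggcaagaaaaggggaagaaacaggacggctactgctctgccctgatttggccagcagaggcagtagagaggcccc
Wfdc17 (chr11:83703806-83703990, plus strand): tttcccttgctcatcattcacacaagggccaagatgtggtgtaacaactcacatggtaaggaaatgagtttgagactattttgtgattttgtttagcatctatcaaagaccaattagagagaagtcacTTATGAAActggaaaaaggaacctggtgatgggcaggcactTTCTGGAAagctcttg
Wfdc18 (chr11:83708754-83709003, plus strand): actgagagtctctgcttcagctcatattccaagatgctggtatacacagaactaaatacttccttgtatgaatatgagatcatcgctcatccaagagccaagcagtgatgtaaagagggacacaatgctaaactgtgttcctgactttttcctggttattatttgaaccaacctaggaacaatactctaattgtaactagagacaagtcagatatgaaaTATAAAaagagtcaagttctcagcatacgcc

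The C/EBP letters TTNNGNAA were in 4 of the 5 windows, those of Wfdc12, Wfdc15b, Wfdc10 and Wfdc17. They were in 36.9% of 27025 promoter windows of this length, in 28.4% of the 11107 windows of tested genes, and in 54 (62.1%) of the 87 windows of inhibitor genes. Wfdc18 held TATAAA, starting 31 bases before its start site, a match present in 12.97% of all windows and 6.62% of those of tested genes. Wfdc15b held TGTTCT at 133 bases, as did 16.2% of all windows and 10.8% of those of tested genes. Of 5 further motifs searched on both strands, the estrogen receptor core GGTCA was in Wfdc15b and Wfdc10 (34.9% of all, 32.4% of tested) and CCAAT in Wfdc15b and Wfdc17 (34.5% and 35.97%). The AP-1 site TGANTCA (6.87% and 4.41%), the GC box GGGCGG (32.9% and 58.2%) and the STAT site TTCNNNGAA (7.18% and 6.01%) were in none of the 5. A match is a run of letters and not a bound site.

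On chromosome 2, 15 WAP genes lie within 569.6 kb (164176327 to 164745931, GRCm38). Of these, 8 were tested, 4 fell and 0 rose, where 4.97% of all features tested fell and 6.04% rose. The direction was open for Wfdc15b alone of the 4, since Wfdc10, Wfdc12 and Wfdc13 reached the filter only through f/f. Wfdc15b, known as a mouse antimicrobial WAP protein (SWAM1), was at 170.3, 249 and 225 FPKM with f/f, against 8.95, 12.8 and 21.5 with d/d. The lowest f/f library stood well above the highest d/d library. The means of 215 ± 40.2 and 14.4 ± 6.41 (SD, n = 3 each) differ 14.9-fold (log2 change of -3.87 with SE 0.30, limma adjusted p = 0.00322). Wfdc12, a nearby gene for the related SWAM2 protein, was at 3.45, 4.09 and 3.22 FPKM with f/f, against 0.115, 0 and 0 with d/d, the last pair being listed at 0 (log2 change of -2.14 with SE 0.21, limma adjusted p = 0.00449). Its value of 0.115 is that of very few fragments, since a single one on a 1-kb transcript is worth 0.0563 to 0.0602 FPKM here.

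Farther along the same stretch lie Wfdc10 and Wfdc13, small single-domain WAP genes. Wfdc13 was at 3.63, 7.78 and 8.75 FPKM with f/f, against 0 (listed), 0.222 and 0.292 with d/d (log2 change of -2.66 with SE 0.32, limma adjusted p = 0.00856). Wfdc10 was at 4.52, 5.001 and 14.1 FPKM with f/f, against 0.311, 0 (listed) and 0.614 with d/d (log2 change of -2.63 with SE 0.42, limma adjusted p = 0.0144). The call of Wfdc10 was lost when replicate 2 of f/f (adjusted p = 0.0523) or of d/d (0.0534) was left out. Groups did not overlap for either gene. The log2 changes of Wfdc12, Wfdc13 and Wfdc10 are set in large part by the added 1, and with a pseudocount of 0.1 they were -4.83, -4.78 and -4.49. Wfdc10 overlaps Wfdc9 on the other strand, and Wfdc9 was listed at 0 in every library.

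The other 4 tested genes of the stretch did not pass. Wfdc2, which encodes the epithelial secretory protein HE4, was at 99.7, 264 and 266 FPKM with f/f, against 86.9, 78.7 and 84.97 with d/d (log2 change of -1.19 with SE 0.37, limma adjusted p = 0.0870). Without f/f replicate 1 its log2 change was -1.66 and it passed (limma adjusted p = 0.00195), and on leaving out any other library it was -0.95 to -1.22 and did not (0.164 to 0.231). Wfdc6a was at 3.78, 12.8 and 13.6 FPKM with f/f, against 2.50, 0.774 and 2.30 with d/d (log2 change of -1.85, limma adjusted p = 0.0565, and 0.0121 without f/f replicate 1 but 0.0953 to 0.169 without any other library); 46.7% of the 50-base words of its transcripts also occur in Wfdc6b, so reads can be split between them. For Wfdc2 and Wfdc6a every d/d library lay below every f/f library, and f/f replicate 1 was the lowest of its group. Slpi, the inhibitor of neutrophil elastase, was at 29.4, 23.7 and 31.9 FPKM with f/f, against 123, 34.7 and 20.4 with d/d, a spread among d/d libraries wider than the gap between the groups (limma adjusted p = 0.504). Wfdc3 was at 2.77, 1.82 and 2.31 FPKM with f/f, against 1.91, 2.85 and 3.41 with d/d (log2 change 0.16, 95% interval from -0.37 to 0.70).

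Genes of other kinds lie between them. The stretch holds 6 other features that were tested, with a median log2 change of 0.07. Gm14302 and Gm20458 among them were listed at 0 in some libraries. By limma 0 of the 6 passed in either direction, where 11.0% of all features tested did, and so small a set says little. One, Dbndd2, had an unadjusted p under 0.05 (log2 change of -0.71, limma adjusted p = 0.0798). Sdc4, a cell-surface proteoglycan gene between Slpi and Wfdc2, was at 46.96, 42.4 and 47.3 FPKM with f/f, against 55.7, 51.3 and 49.2 with d/d. Pigt, of glycolipid anchor attachment, was at 116, 77.4 and 73.7 with f/f, against 118, 101 and 120.3 with d/d. Summed over the 15 WAP genes of the stretch, the level was 318, 568 and 566 FPKM with f/f, against 224, 131 and 134 with d/d.

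**Figure D3:**
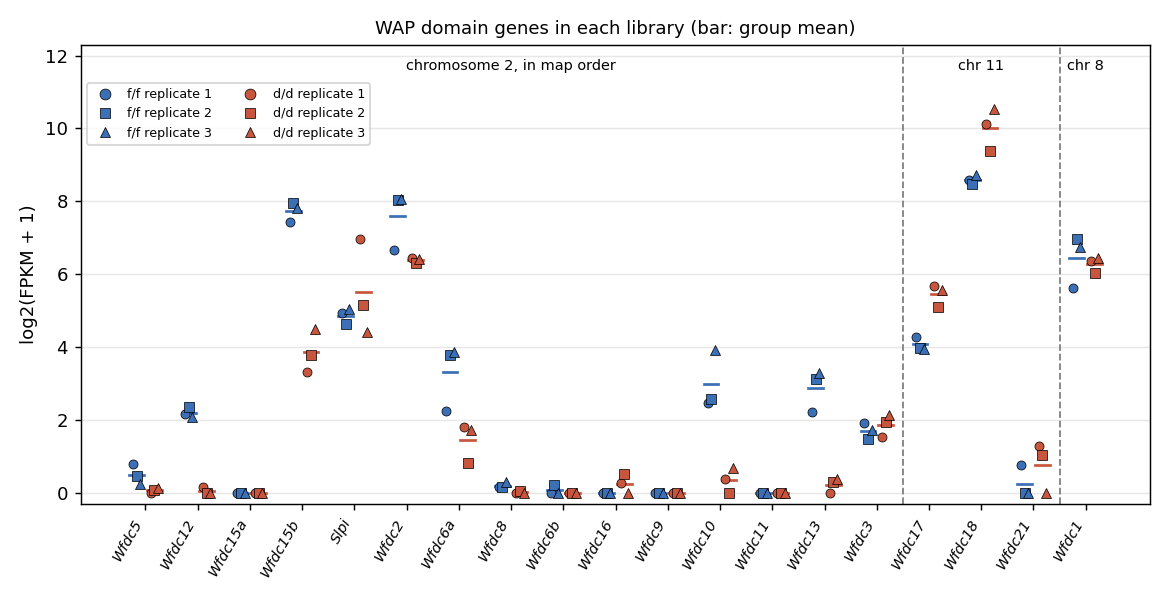
Level of each WAP gene as log2(FPKM + 1) in the 3 f/f (blue) and 3 d/d (red) libraries, with genes in map order on chromosome 2, then chromosome 11 and chromosome 8, and bars at the means of the log values. Wfdc15b, Wfdc12, Wfdc10 and Wfdc13 are lower in d/d, and Wfdc17 and Wfdc18 are higher.

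On chromosome 11, Wfdc17 and Wfdc18 stand next to each other on the plus strand (83703991 to 83706268 and 83709015 to 83711348), and both rose. Wfdc17, known from activated macrophages and microglia, was at 18.5, 14.8 and 14.6 FPKM with f/f, against 50.6, 33.5 and 46.1 with d/d. All 3 d/d libraries lay above all f/f libraries, with means of 15.98 ± 2.21 and 43.4 ± 8.86 (SD, n = 3 each), a 2.72-fold rise (log2 change of 1.37 with SE 0.18, limma adjusted p = 0.00997). Wfdc18 was at 387, 355 and 419 FPKM with f/f, against 1115, 666 and 1476 with d/d, 2.81-fold higher with no overlap of the groups (log2 change of 1.41 with SE 0.29, limma adjusted p = 0.0279). Over all features tested, leaving out 1 library gave 185 to 943 that rose and 127 to 855 that fell, against 933 and 768 otherwise. With 1 library fewer the call of Wfdc18 held only when d/d replicate 2 was the one left out. It was lost on leaving out any f/f replicate (adjusted p = 0.0513, 0.105 and 0.0769 for 1, 2 and 3) or replicate 1 (0.0790) or 3 (0.0633) of d/d, without the filter (0.0643) and with Hoxa10 as a covariate (0.0537). The third gene of the row, Wfdc21, was at 0.697, 0 and 0 FPKM with f/f, against 1.44, 1.05 and 0 with d/d. Wfdc17 and Wfdc18 share none of their 50-base transcript words with each other or with another gene (0%). Wfdc1, on chromosome 8, was at 48.7, 124 and 106.97 FPKM with f/f, against 81.7, 64.8 and 85.4 with d/d (limma adjusted p = 0.777).

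Macrophage markers rose too. All 7 markers of the macrophage list rose (Adgre1, Csf1r, Cd68, C1qa, C1qb, Lyz2 and Mrc1), where 6.04% of all features tested did. Their summed level ran from 308 to 380.0 FPKM in f/f. In d/d it was at 1097, 1102 and 838. With d/d, Wfdc17 was at 50.6, 33.5 and 46.1 FPKM and Wfdc18 at 1115, 666 and 1476. Serpina3g was at 13.3, 24.1 and 5.52 FPKM there, and Cstb at 145, 137 and 139. The part of macrophages in the rises of Wfdc17, Wfdc18, Serpina3g and Cstb was not tested. Neutrophil markers followed another pattern. Of 9, 6 were tested and 1 (Csf3r) rose; Mpo and Elane were listed at 0 in every library, and the summed level ran from 3.58 to 100.7 FPKM in f/f and from 29.5 to 100.1 in d/d.

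Among the serpins, 17 of 64 genes were tested, 2 rose and 0 fell, where 6.04% of all features tested rose and 4.97% fell. Serpinf1, which encodes the anti-angiogenic factor PEDF and does not inhibit proteases, was at 168, 168 and 141 FPKM with f/f, against 306, 366 and 458 with d/d. No d/d library overlapped the f/f range, and the rise was 2.37-fold (159 ± 15.3 to 377 ± 76.2, SD, n = 3 each; log2 change of 1.23 with SE 0.17, limma adjusted p = 0.0106). Serpina3g, an inhibitor of lysosomal cysteine proteases in leukocytes, was at 1.67, 3.20 and 1.99 FPKM with f/f, against 13.3, 24.1 and 5.52 with d/d, 6.25-fold higher with wide scatter in d/d (log2 change of 2.04 with SE 0.47, limma adjusted p = 0.0413). With 1 library fewer that call held only when d/d replicate 3 was the one left out. It was lost on leaving out any f/f replicate (adjusted p = 0.0795, 0.0951 and 0.114 for 1, 2 and 3) or replicate 1 (0.102) or 2 (0.0846) of d/d, without the filter (0.0837) and with Hoxa10 as a covariate (0.0700). Serpina3g shares 15.5% of its 50-base words with other genes of its cluster, so reads can be split between them. The effect of this on its level was not measured.

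The most abundant serpin in f/f was Serpina1e, 1 of 6 Serpina1 genes, the alpha-1-antitrypsin group, on chromosome 12 (103688044 to 103958975). Alpha-1-antitrypsin is the main plasma inhibitor of neutrophil elastase and is made chiefly by liver. Serpina1e was at 401, 1160.2 and 1050.4 FPKM with f/f, against 177, 167 and 365 with d/d. The groups did not overlap, and the difference of 3.68-fold missed the threshold (log2 change of -1.83 with SE 0.48, limma adjusted p = 0.0555). It passed without f/f replicate 1 (log2 change of -2.31, limma adjusted p = 0.0156) under quantile normalization (0.0268) and on the scale of nuclear protein-coding genes (0.0423), and not on leaving out any other library (0.0658 to 0.162). Serpina1a, Serpina1b, Serpina1d and Serpina1f each stayed at or under 0.523 FPKM in every library and Serpina1c was listed at 0, although 34.6% of the 50-base words of Serpina1e occur in other genes, up to 26.85% in Serpina1d. Hepatocyte markers were close to absent: of 7, 0 reached the filter, Ttr and Fga were listed at 0 in every library, and their summed level was at most 1.35 FPKM.

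The Serpina3 genes lie in 301.6 kb of the same chromosome (104112724 to 104414329). Serpina3n, an acute-phase serpin, was at 10.4, 20.3 and 20.1 FPKM with f/f, against 62.5, 20.5 and 10.996 with d/d. Its groups overlapped (limma adjusted p = 0.568), and d/d replicate 1 was the high library, as for Slpi. Serpina9 was at 5.49, 1.77 and 2.16 FPKM with f/f, against 0.338, 1.14 and 1.19 with d/d (log2 change of -1.06, limma adjusted p = 0.126). Serpina3c and Serpina3f, both under the filter, were higher in every d/d library than in any f/f library, reading 2.31, 0.953 and 0.879 FPKM and 0.595, 2.69 and 0.334 FPKM with d/d, against at most 0.508 and 0.254 with f/f. Of 11003 features above 0 and under the filter, 5.4% were higher in this way. Serpina3f shares 10.6% of its 50-base words with other genes, and 6.03% with Serpina3g, so reads can be split between them.

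In clade b, the intracellular serpins, 7 of 28 genes were tested, and 0 rose or fell by limma. An unadjusted p under 0.05 was seen in 2 of the 7 (Serpinb6a and Serpinb9), where 29.6% of all features tested had one. Serpinb6a, the most abundant, was at 83.8, 78.7 and 81.5 FPKM with f/f, against 68.7, 68.4 and 72.9 with d/d (log2 change of -0.21 with a 95% interval of -0.42 to -0.01, limma adjusted p = 0.158). Serpinb9, the granzyme B inhibitor, was at 13.4, 11.2 and 11.4 FPKM with f/f, against 14.3, 17.1 and 13.9 with d/d (log2 change of 0.31 with a 95% interval of 0.0005 to 0.62, limma adjusted p = 0.169). Serpinb6a overlaps Ripk1 and Nqo2 on the other strand, so reads of these genes may not be told apart. Serpinb1a (log2 change -0.03, 95% interval from -0.62 to 0.55), Serpinb6b (0.03, from -0.78 to 0.83) and Serpinb8 (0.16, from -0.25 to 0.57) had intervals on both sides of 0.

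Of the regulators of plasminogen activation, Serpine2 (protease nexin 1) was at 29.97, 110.2 and 106 FPKM with f/f, against 49.9, 49.3 and 37.8 with d/d. Because f/f replicate 1 lay below all d/d libraries the groups overlapped (log2 change of -0.63 with SE 0.48, limma adjusted p = 0.425), and without f/f replicate 1 the log2 change was -1.23 and passed (limma adjusted p = 0.00874). It was -0.31 (0.755) and -0.34 (0.714) on leaving out f/f replicate 2 or 3. Serping1, the complement C1 inhibitor, was at 206, 192 and 189 FPKM with f/f, against 360.1, 277 and 222 with d/d, with no overlap and a call that missed the threshold (log2 change of 0.52 with SE 0.18, limma adjusted p = 0.114). Serpinh1 was at 254.6, 402 and 384 FPKM with f/f, against 436, 368 and 365 with d/d (limma adjusted p = 0.557). Serpini1 (neuroserpin) was at 1.38, 2.01 and 2.16 FPKM with f/f, against 1.22, 1.33 and 1.17 with d/d (limma adjusted p = 0.324). The blood serpins Serpinc1 (antithrombin), Serpind1 (heparin cofactor) and Serpinf2 (antiplasmin) were under the filter, at no more than 1.67, 0.259 and 0.185 FPKM in any library, and Serpini2 at no more than 0.0516.

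Among 14 cystatins and stefins, 3 were tested, 1 rose and 0 fell, where 6.04% of all features tested rose. Stefin B (Cstb), a cytosolic inhibitor of cathepsins, was at 82.7, 98.97 and 79.0 FPKM with f/f, against 145, 137 and 139 with d/d. The groups were well apart and the rise was 1.61-fold (86.9 ± 10.6 to 140.2 ± 3.97, SD, n = 3 each; log2 change of 0.69 with SE 0.11, limma adjusted p = 0.0155). The call sat near the threshold with 5 libraries: it held on leaving out f/f replicate 1 or 2 and was lost on leaving out replicate 3 of f/f (adjusted p = 0.0593) or any d/d replicate (0.0514, 0.0518 and 0.0520 for 1, 2 and 3). Cst3, the abundant secreted cystatin C, was at 516, 468 and 524 FPKM with f/f, against 692, 592 and 646 with d/d, again without overlap (log2 change of 0.36 with SE 0.13, limma adjusted p = 0.118). Cst6 was at 3.71, 1.48 and 1.27 FPKM with f/f, against 0 (listed), 0.466 and 2.15 with d/d (limma adjusted p = 0.301). Cst8 was at 5.81 FPKM in f/f replicate 3 and listed at 0 in the other 5 libraries.

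Cystatins bind cysteine proteases, most of them lysosomal. Of 11 genes in the list of cathepsins and legumain, all tested, 6 rose and 0 fell, where 6.04% of all features tested rose and 4.97% fell. Their median log2 change was 0.97, where the median of all features was -0.01. Cathepsin K (Ctsk) was at 22.3, 29.98 and 32.6 FPKM with f/f, against 112, 156 and 179.9 with d/d (log2 change of 2.35 with SE 0.21, limma adjusted p = 0.00393). Cathepsin S (Ctss) rose 3.47-fold, and Ctsh and Ctsc 2.10-fold each. Ctsb and legumain (Lgmn), which stefins and cystatin C inhibit respectively, rose 2.08-fold and 2.00-fold. Ctsf and Ctso had negative log2 changes of -0.38 and -0.35 and did not pass. Several of these proteases are also abundant in macrophages, whose markers rose as given above. The part of macrophages in these rises was not tested.

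**Figure D4:**
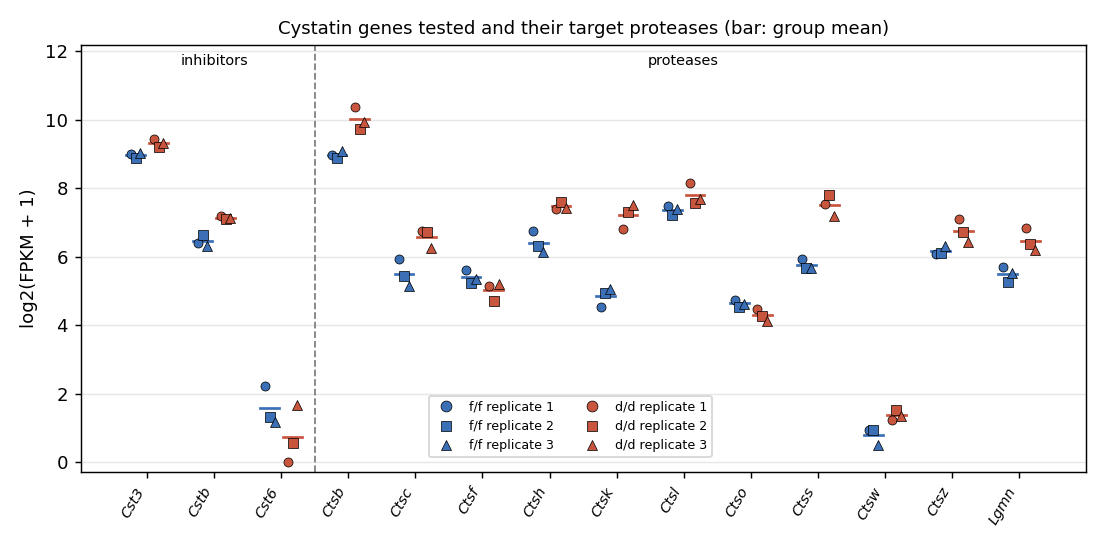
Level as log2(FPKM + 1) of the 3 cystatin genes tested and of the 11 cysteine proteases of the list in the f/f (blue) and d/d (red) libraries, with bars at the group means. Cstb and 6 proteases rose, with Ctsk the farthest apart (28.3 ± 5.38 and 150 ± 34.3 FPKM, SD, n = 3 each).

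Itih5, whose product binds hyaluronan in the matrix, was the member outside the WAP genes that fell. It was at 45.8, 32.2 and 32.4 FPKM with f/f, against 11.5, 16.3 and 12.2 with d/d and the groups lay far apart. The fall was 2.76-fold (log2 change of -1.39 with SE 0.19, limma adjusted p = 0.0104). Of the other heavy chains, Itih4 was at 0.713, 0.426 and 1.14 FPKM with f/f, against 2.68, 1.57 and 0.369 with d/d (limma adjusted p = 0.505), Itih2 and Itih3 had means under 1 FPKM, and Itih1 was listed at 0. The pan-protease inhibitor A2m was at 2.18, 0.981 and 0.804 FPKM with f/f, against 2.83, 7.96 and 3.10 with d/d, with no overlap (log2 change of 1.21 with SE 0.39, limma adjusted p = 0.0948). Pzp stayed at or under 0.160 FPKM in every library.

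The Kazal inhibitors were scarce. Of 12 Spink genes, 8 were listed at 0 in every library and 1, Spink8, was tested. Spink8 was at 8.25, 32.6 and 39.8 FPKM with f/f, against 2.56, 16.2 and 3.56 with d/d. Its d/d replicate 2 lay above f/f replicate 1, so the groups overlapped (log2 change of -1.83 with SE 0.75, limma adjusted p = 0.162). Under the filter, Spink4 was at 0.452, 1.31 and 0.912 FPKM with f/f and listed at 0 in all 3 d/d libraries, and Spink2 was at 0.697, 0.618 and 0.717 with f/f, against 0.180, 0.362 and 0.486 with d/d.

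Groups did not overlap in 20 of the 35 genes, against 35.6% of all features tested. In 9 of the 35 tested genes every d/d library lay above every f/f library, where 18.1% of all features tested did, and in 11 every d/d library lay below, where 17.4% did. Of the 11, Wfdc10, Wfdc12, Wfdc13 and Serpina9 reached the filter through f/f alone and could not have lain above. Of the 42 genes under the filter, 5 lay above (5.4% of 11003 such features) and 6 below (7.57%). These low values rest on few fragments and carry large counting error.

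Several members set f/f replicate 1 apart from the other f/f libraries, a pattern singled out after the values were seen. In 7 of the 35 tested genes (20.0%), namely Serpina1e, Serpine2, Spink8, Wfdc2, Wfdc1, Wfdc6a and Wfdc13, f/f replicate 1 was more than 2 times below the lower of the other f/f libraries. The share of all features tested was 2.66%. In 5 (A2m, Cst6, Serpina9, Serpinb11 and Serpinb12) it was over 2 times the higher of them, where 4.43% of all features were. Serpinb11 was at 9.53 FPKM there against 1.54 and 0.481, and at 0.161, 1.497 and 0.680 with d/d. Other markers set this library apart too. The summed smooth muscle markers were at 1926, 4407 and 4561 FPKM with f/f, against 3869, 2398 and 3127 with d/d, and the multiciliated ones at 590.1, 304 and 243 FPKM with f/f, against 71.5, 344 and 225 with d/d. S100a8, of neutrophils, was at 39.99, 0.515 and 0.807 FPKM with f/f, against 36.3, 38.7 and 7.53 with d/d. By these markers d/d replicate 1 was low in ciliated genes, and f/f replicate 3 was high in steroidogenic ones (Cyp11a1 at 0.725, 0.208 and 13.5 FPKM with f/f and at most 0.0645 with d/d). Their part in the members' values was not tested. Leaving out f/f replicate 1 gave 3 genes that rose and 9 that fell in place of 5 and 5. Over all features tested it gave 943 and 855 in place of 933 and 768. Added to the members that fell were Serpina1e, Serpine2, Wfdc2 and Wfdc6a. These were picked for a low f/f replicate 1, so leaving it out must widen their fall, and the added calls are no separate support. With d/d replicate 1, the lowest d/d library for Hoxa10, also left out, the member counts were 2 and 9. With the level of Hoxa10 as a covariate 3 rose and 6 fell, and Serpina1e was among those that fell (log2 change of -1.42, limma adjusted p = 0.0332).

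**Figure D5:**
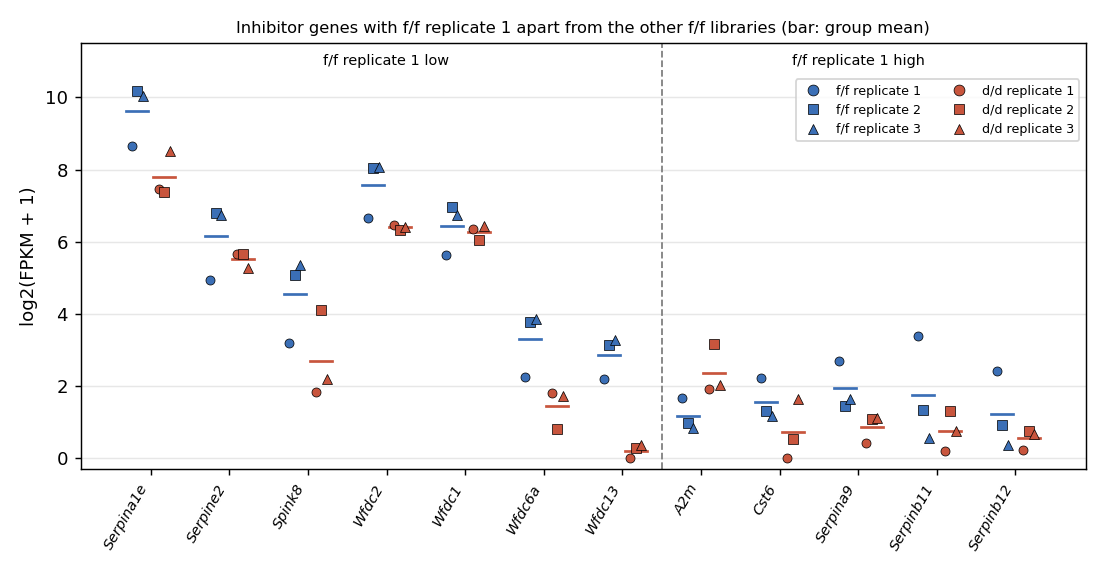
Level as log2(FPKM + 1) of the 12 tested inhibitor genes in which f/f replicate 1 (blue circle) lay far below (left) or above (right) the other f/f libraries, with d/d libraries in red and bars at the group means. Serpina1e, Serpine2, Wfdc2 and Wfdc6a passed the test when this library was left out. They were picked for its low value, so leaving it out must widen their fall.

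Further lists covered proteases and inhibitors of other families. Of all features tested, 6.04% rose, 4.97% fell and 29.6% had an unadjusted p under 0.05. Of 12 tested genes of plasminogen and coagulation, 0 rose or fell by limma (6 had an unadjusted p under 0.05), with a median log2 change of 0.41. Tissue plasminogen activator (Plat), a target of Serpine2, was at 202, 191 and 181 FPKM with f/f, against 515, 247 and 365 with d/d (unadjusted p = 0.00958, limma adjusted p = 0.0670), and the complement protease gene C1s1, a target of Serping1, went from 88.0 ± 2.47 to 117 ± 17.3 (SD, n = 3 each; unadjusted p = 0.0175, limma adjusted p = 0.0936). Of 18 tested epithelial and leukocyte serine proteases, 5 rose (Hgfac, St14, Prss8, Prss23 and Fap) and 3 fell. Hgfac, the activator of hepatocyte growth factor, was at 1.15, 1.43 and 1.39 FPKM with f/f, against 22.3, 20.6 and 23.2 with d/d (limma adjusted p = 0.000665). The genes that fell were the kallikreins Klk11 (3.02-fold) and Klk1 (3.22-fold) and the secreted protease Htra3 (2.81-fold). Of 23 tested inhibitors of other families, 0 rose and 4 fell: Spock2 (3.31-fold), Spock1 (2.67-fold), Pi16 (2.45-fold) and Reck (2.09-fold), with a median log2 change of -0.22. Spock genes encode matrix proteoglycans with an inhibitor domain, and Reck encodes a membrane inhibitor of metalloproteinases.

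Since Mettl3 methylates adenosine within a short consensus, the letters GGACT, its most frequent form, were counted in the longest protein-coding GENCODE transcript of each gene. A run of these letters is not a methylated site, and no methylation was measured. The 35 tested members held a median of 1.09 per kb, and all 13339 tested protein-coding genes 1.06. None was found in 8 of the 35 (22.9%) against 7.43% of all, with median transcript lengths of 1768 and 3119 bases. Of the genes that rose, Cstb and Wfdc17 held none, and of those that fell, Wfdc15b and Wfdc10 held none. The windows for the WAP genes that changed and for Serpinf1 are shown with 10 bases on each side, with GGACT in capitals and positions counted from 1 at the transcript's 5′ end.
Wfdc12, GGACT at base 371 of 775: tggcctcagaGGACTgcttccaccg
Wfdc12, GGACT at base 464 of 775: ccttgatcttGGACTccccaacctc
Wfdc13, GGACT at base 949 of 1074: gtgtacatctGGACTctcaatctct
Wfdc18, GGACT at base 357 of 521: tttataagcaGGACTgatggctagc
Serpinf1, GGACT at base 239 of 1832: ctactcctctGGACTggagccctgc
Serpinf1, GGACT at base 975 of 1832: gatacggcttGGACTctgatctcaa
Itih5 held 10 in a transcript of 7900 bases and Serpina3g 3 in 1803. Genes with and without GGACT were thus present among both those that rose and those that fell.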

How the data were processed

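The authors deposited 1 table per library (3 f/f, 3 d/d) with 55483 Ensembl genes. The unit of the deposited values is read as FPKM, an inference from decimals with unequal totals and from Cufflinks 2.2.1, named with HISAT2 2.2.1 and the builds mm9 and mm10 per the submitters' processing notes. The sources used here name no annotation, strand setting or filter. Coordinates come from GENCODE M21 (GRCm38) by Ensembl identifier.

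Values of rows sharing a symbol (114 symbols) were added up. The 15438 features whose mean reached 1 FPKM entered limma 3.58.1 (R 4.3.3) as log2(FPKM + 1) (variance trend, genotype only, two-sided, Benjamini-Hochberg over all features, threshold 0.05). Folds are ratios of mean FPKM. On simulated data with the spread of these 15438 features, 44.8% of changes of 1 on the log2 scale and 84.8% of changes of 2 were called, with 4.85% false calls. Members, lists and tests were chosen with earlier results of these data known. Named are all members past the threshold, the 2 most abundant of each subfamily, the 3 largest changes with an unadjusted p under 0.05 that missed it, and members singled out after their values were seen. One tested member that did not pass is counted and is not reported here by name. For the lists, up to 4 past the threshold or the 2 most abundant are given with values. An exact 0 can be a failed estimate and is written as listed at 0. Alternatives changed the pseudocount (0.1), dropped the filter, rescaled the values (quantile, trimmed mean or TMM, nuclear protein-coding genes), used robust eBayes, added a replicate block or Hoxa10 as a covariate, or left out libraries. In the libraries 1 fragment on a 1-kb transcript is worth 0.0563 to 0.0602 FPKM, and intervals cover the spread between libraries.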

Additional observations from a re-analysis of the deposited data

How the results depend on the processing

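The counts of 5 genes that rose and 5 that fell held under a pseudocount of 0.1, TMM scaling and robust eBayes, although the pseudocount moved the log2 changes of Wfdc12, Wfdc13 and Wfdc10 to -4.83, -4.78 and -4.49. The number that fell was 6 under quantile normalization (Serpina1e added) and 7 on the scale of nuclear protein-coding genes (Serpina1e and Wfdc6a added, limma adjusted p of 0.0423 and 0.0467). The number that rose was 3 without a filter, where Spink4 joined those that fell, 3 with Hoxa10 as a covariate, and 2 with both replicates 1 left out, where 9 fell; without any 1 library it ranged from 2 to 3, and the number that fell from 4 to 9. Over all features tested, 185 to 943 rose and 127 to 855 fell without 1 library, against 933 and 768. Wfdc15b, Wfdc12, Wfdc13 and Wfdc17 kept their call under all 15 alternatives. Itih5 and Serpinf1 kept it under 14 and lost it with the block. The replicate numbers showed no clear pairing of the libraries (correlations of deviations -0.22, -0.06 and 0.0027 for numbers 1 to 3). Between unlike numbers the correlations ran from -0.28 to 0.28. With 3 libraries per group they cannot exclude a batch shared by number. With a replicate block 1 gene rose (Wfdc17) and 4 fell, against 5 and 5. Over all features tested 174 rose and 102 fell with the block, against 933 and 768. The log2 change of Mettl3 with the block was 0.75, with a limma adjusted p of 0.0559. Leaving out 1 library gave 0.66 to 0.80 for Mettl3, with the call lost without f/f replicate 2. Of the 35 tested members 8, none of them called, changed sign under some alternative. With 1 library left out, Serpina3n ran from -0.10 to 1.10, Serpinh1 from -0.02 to 0.31, Slpi from -0.077 to 1.19, Serpinb1a from -0.26 to 0.22, Serpinb6b from -0.15 to 0.33 and Wfdc1 from -0.58 to 0.086. With both replicates 1 left out, Serpina3n was at -0.40, Serpinh1 at -0.10, Slpi at -0.05, Wfdc1 at -0.62, Serpinb11 at 0.078 and Serpinb12 at 0.072, and the last pair went down to -1.61 and -1.11 without f/f replicate 3. With Hoxa10 as a covariate Serpinb6b was at -0.23 and Wfdc1 at 0.10, and on the nuclear protein-coding scale Serpinb6b was at -0.0019. The causes were not tested. Members under 1 FPKM rest on few fragments.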
